A study of Homo sapiens with 42 samples.

Results

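Bleomycin-induced senescence was examined here in IMR90 human lung fibroblasts that carried a control shRNA, as 4 bleomycin libraries against 4 DMSO libraries out of 42 poly(A) RNA-seq libraries in the study. The 8 libraries were chosen by their treatment and shRNA labels, and every gene with enough counts in the 24 IMR90 libraries was tested. IMR90 is an established, finite fibroblast strain of fetal lung origin. Cells of the bleomycin group were exposed to 50 µg/ml bleomycin for 24 h, those of the other group to DMSO, and both were cultured for 7 days before 1 µg/ml doxycycline switched on the control shRNA for 72 h, so that RNA was taken at day 10. Both groups therefore share the doxycycline exposure and the shRNA vector. The labels number the replicates of each group 1 to 4 but do not say that they came from separate cultures. A legend of the study that covers COPB2 knockdown in bleomycin-treated IMR90 cells counts n as independent experiments. The n it gives is below the 4 replicates per group used here, and it does not name the libraries. P-values measure the spread between libraries within groups, estimated over 24 IMR90 libraries that were treated as independent. The remaining 34 libraries carried shRNAs against COPB2, a subunit of the COPI vesicle coat, or came from cells with an inducible RAS fusion. Of these, only the 16 bleomycin and DMSO libraries of IMR90 cells with COPB2 shRNAs are used below, for the shared estimate of the spread and for comparison.

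Bleomycin is a glycopeptide that cleaves DNA, and persistent breaks hold fibroblasts in a stable arrest in which p53 and the CDK inhibitors p21 and p16 keep RB proteins active. Arrested cells lose lamin B1, enlarge, and release a mixture of cytokines, chemokines, growth factors and proteases, the senescence-associated secretory phenotype (SASP). It is driven largely by NF-κB and C/EBPβ. Lung fibroblasts otherwise make the collagens, elastic fibres and WNT and FGF ligands that support the airway and alveolar epithelium.

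Levels are given as counts per 1000000 of the scaled library size (CPM), always in the order of replicates 1 to 4 and with the DMSO libraries before the bleomycin libraries, and differences as log2 fold changes of bleomycin against DMSO with the standard error (SE) of the fit. A bare value in parentheses after a gene name or after its CPM is its log2 fold change. A level in CPM is not corrected for transcript length, so genes are compared between groups and not with each other. Total counts ran from 15771259 to 19522297 per library, which places the floor of 3 counts between 0.1524 and 0.1924 CPM. The first principal component held 54.7% of the variance and separated the treatments. The second held 29.4% and separated DMSO replicate 1 (score 68.3) and bleomycin replicate 2 (61.4) from the other 6 libraries (-35.8 to 6.30). The deviations of these 2 libraries from their own groups ran in parallel across genes (Pearson r 0.813, a description across genes, which are not independent), and the GC content and length of the transcripts accounted for 40.5% and 33.2% of their variance. Without both of them 3873 of the calls given below (83.9%) were made again. Among the genes named below, those that then lost their call were ACTA2, CCNA2, CD274, CXCL5, EEF2, HBG1, IGFBP2, IGFBP3, NHEJ1, PTGS2, RAD54L and TNFSF15 (adjusted p 0.0501 to 0.0903), and TBX4 was called (adjusted p 0.0202). Lists of fibroblast, epithelial, endothelial and leukocyte markers were compared as a check of the cells: the 11 fibroblast markers summed to 24615 to 29889.7 CPM with DMSO and 13044 to 22631 with bleomycin, against 74.3 to 217 for the 11 epithelial, 9.63 to 40.1 for the 7 endothelial and 14.5 to 109.9 for the 8 leukocyte markers. Of the 11 epithelial genes, KRT5, KRT14, SFTPC, SFTPB and SCGB1A1 had at most 3 counts in any library. The other 6 were tested, and 2 of them were called higher and 0 lower, as given below.

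**Figure D1:**
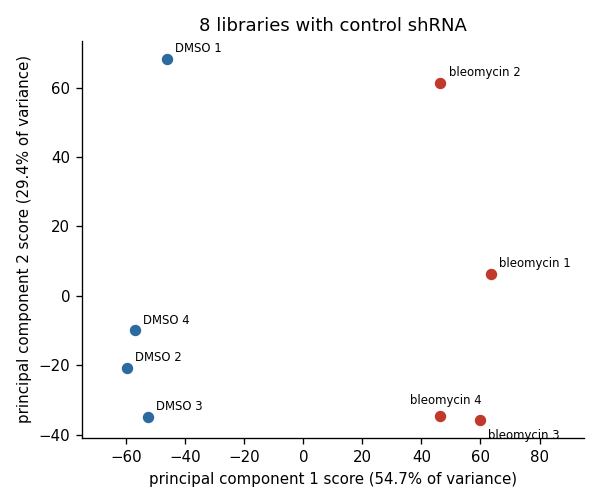
Scores of the 8 libraries on the first 2 principal components of log2 CPM, with bleomycin in red and DMSO in blue. The horizontal axis (54.7% of the variance) separates the treatments, and the vertical axis (29.4%) sets DMSO replicate 1 and bleomycin replicate 2 apart from the other 6 libraries.

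The leading question was which transcripts differ between cells undergoing bleomycin-induced senescence and DMSO-treated cells. Of 14783 genes tested, 4614 were called at an adjusted p-value under 0.05 by the quasi-likelihood F-test of edgeR, or 31.2%, with 2275 higher (15.4%) and 2339 lower (15.8%) in bleomycin-treated cells. The split was 3368 higher and 2260 lower with the Wald test of DESeq2. Large changes were mostly increases: 397 called genes were higher by at least 3 on the log2 scale and 67 were lower by as much, while the median absolute change of a called gene was 1.05. Of the genes tested, 74 had 0 counts in all 4 DMSO libraries and counts in all 4 bleomycin libraries, and all 74 were called. Such genes passed the count filter only through libraries other than these DMSO libraries. Their part in the split of large changes was not counted. In 4146 genes, or 28% of those tested, the CPM of the 4 bleomycin libraries did not overlap with that of the 4 DMSO libraries.

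The second question was how much of this rests on bleomycin replicate 4, in which cytokine counts were far above those of the other libraries. Without it, 4012 of the 4614 calls (87.0%) were made again in the same direction, 2062 of the higher genes (90.6%) and 1950 of the lower genes (83.4%), and no called gene changed sign. A total of 602 calls were lost and 359 other genes were called only without it, so that 29.2% of the genes then tested were called. Leaving out any other library cost between 607 and 1004 calls, more than the 602 that bleomycin replicate 4 cost. What set this library apart was the size of the changes that depended on it. Among the calls lost without it, 20 were changes of at least 3 on the log2 scale, all of them increases, against 1 to 9 for each other library. The calls that hold in each of the 8 fits that leave out 1 library number 3081, or 66.8% of all calls.

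**Figure D2:**
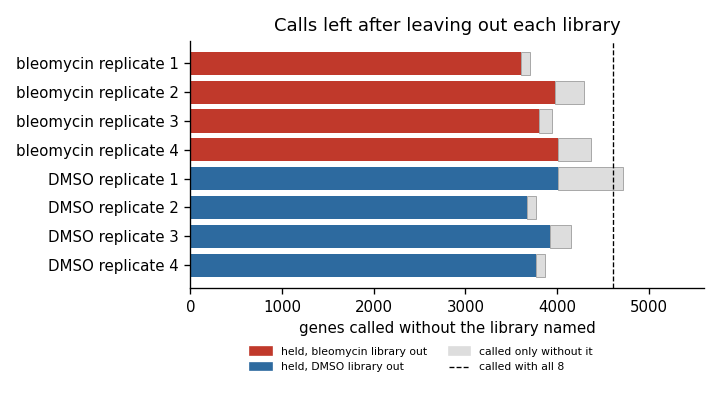
Number of genes called when each of the 8 libraries was left out of the fit, with the calls shared with all 8 libraries in red (bleomycin library left out) or blue (DMSO library left out) and the calls made only without that library in grey. The dashed line marks the 4614 genes called with all 8 libraries, and the bar for bleomycin replicate 4 has the most shared calls, 4012.

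**Figure D3:**
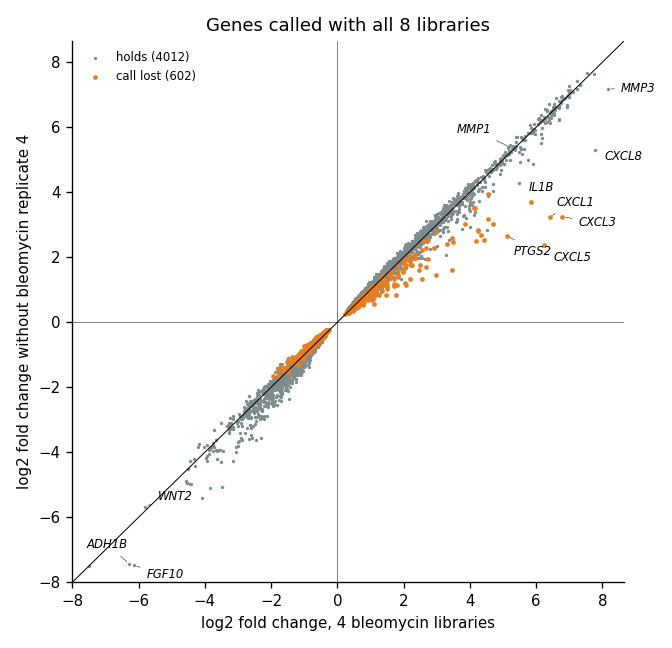
Log2 fold change of each of the 4614 called genes with 4 bleomycin libraries (horizontal) and without bleomycin replicate 4 (vertical). The 4012 genes whose call holds are grey. Some of them lie off the line of equality, such as CXCL8 (7.77 against 5.30 without replicate 4) and FGF10 (-6.16 against -7.48). The 602 genes whose call was lost are orange, with CXCL1, CXCL3, CXCL5 and PTGS2 furthest below the line among them.

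The 10 called genes whose change shrank most and whose call was lost were picked for that loss and are given as a description. They were the chemokines CXCL5, CXCL3, CXCL1 and CCL7, the cytokine TNFSF15, the cytokine receptor IL13RA2, and PTGS2, AREG, RGS18 and HBG1. CXCL5, a chemokine that attracts neutrophils, was at 1.67, 2.19, 1.37 and 2.05 CPM with DMSO and 11.4, 11.1, 5.17 and 521 with bleomycin. Replicate 4 thus lay far above the other bleomycin libraries, all of which were nonetheless above every DMSO library. The log2 fold change fell from 6.23 (SE 2.10, adjusted p 0.0272) to 2.37 without replicate 4 (adjusted p 0.338). CXCL5 was not called without bleomycin replicate 4 or DMSO replicates 1, 2, 3 and 4 in turn (adjusted p 0.0624 to 0.338). CXCL3, a related ligand, had a log2 fold change that went from 6.79 (adjusted p 0.0219) to 3.25 (0.246), with CPM of 0.898, 0.203, 0.158 and 0.176 against 4.55, 3.93, 1.19 and 145. Its call was lost on leaving out bleomycin replicate 4 or DMSO replicates 2, 3 and 4 in turn (adjusted p 0.0555 to 0.246). PTGS2, the inducible cyclooxygenase of prostaglandin synthesis, had 0.641, 0.559, 1.16 and 0.820 CPM with DMSO and 8.47, 2.95, 3.63 and 97.3 with bleomycin. Its log2 fold change moved from 5.13 to 2.67. Without bleomycin replicate 4 or DMSO replicates 1, 2 and 4 in turn it was not called (adjusted p 0.0514 to 0.194). In all 3 genes replicate 4 held most of the summed bleomycin level. The same was seen for IL13RA2, the decoy receptor of interleukin-13, at 0.0641, 0.0508, 0.368 and 0.117 against 2.65, 0.983, 2.50 and 31 CPM (5.86 with replicate 4, 3.69 without it). Leaving out bleomycin replicate 4 ended its call (adjusted p 0.0704). AREG, an EGF receptor ligand, had 0.449, 1.32, 0.684 and 1.05 against 6.35, 3.69, 4.81 and 49.5 CPM (4.17 and 2.50). AREG was not called without bleomycin replicate 4 (adjusted p 0.122). For CCL7, a monocyte chemokine, the levels were 1.03, 0.203, 0.579 and 0.410 against 3.81, 4.30, 1.19 and 37.4 CPM (4.41 and 2.54). Its call was lost on leaving out bleomycin replicate 4 or DMSO replicate 2 in turn (adjusted p 0.0513 to 0.147). TNFSF15, a cytokine of the TNF family, stood at 3.21, 3.30, 4.05 and 4.8 against 14.1, 12.7, 7.91 and 136 CPM (3.47 and 1.62). Without bleomycin replicate 4 or DMSO replicate 2 in turn it was not called (adjusted p 0.055 to 0.237). RGS18, a regulator of G-protein signalling, had 0, 0.152, 0.263 and 0.176 against 1.69, 0.307, 1.78 and 12.8 CPM (4.71 and 3.01). Leaving out bleomycin replicate 4 ended its call (adjusted p 0.0767). The tenth of these genes, the fetal globin HBG1, is near the floor, with 3 counts in the DMSO libraries together and 0, 15, 0 and 54 in the bleomycin libraries (log2 ratio of summed CPM 4.55, 95% counting interval 3.00 to 6.83). HBG1 was not called without bleomycin replicate 4 or DMSO replicates 1, 2, 3 and 4 in turn (adjusted p 0.0525 to 0.274).

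The next 5 genes were picked as the largest changes called only without bleomycin replicate 4, among genes tested with all libraries. That replicate 4 differed in them follows from this choice, so they are given as a description. In each of them the change without replicate 4 was a decrease. FGL2, a fibrinogen-like secreted protein, had 8.85, 42.1, 44.1 and 43.0 CPM with DMSO and 4.13, 2.83, 4.87 and 51.9 with bleomycin, so that replicate 4 was above every DMSO library and the other 3 below. It was not called with all libraries (log2 fold change -1.11, adjusted p 0.413) and was called without replicate 4 (-3.11, adjusted p 0.019). The same held for TSPAN2, a tetraspanin, at 1.28, 1.58, 1.47 and 1.41 against 0.424, 0.246, 0.297 and 1.82 CPM (-2.10 without replicate 4), and for CKAP2L, a mitotic spindle protein, at 0.513, 1.32, 2.47 and 1.82 against 0.371, 0.307, 0.297 and 0.993 CPM (-2.20 without it). CCL11, an eosinophil chemokine (-4.20 without replicate 4), and the pseudogene EGFEM1P (-2.91) complete the 5 genes with the largest changes that only appear without it. CKAP2L was one of several proliferation transcripts whose highest bleomycin value was in replicate 4, among them MKI67 and CDK1 below. Others, such as MYBL2 and FOXM1 below, were highest in replicate 2. Summed over the mitotic and kinetochore list, bleomycin replicates 1 to 4 had 358.3, 286.2, 416.2 and 357.6 CPM. The DNA replication list had 742.5, 790.5, 747.2 and 751.6 CPM, so replicate 4 was the highest for neither list.

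The same replicate number stood out in the libraries with COPB2 shRNAs, which entered the comparison only through the shared filter, scaling and estimate of the spread. CXCL1, a neutrophil chemokine, had 4.11, 1.73, 3.32 and 2.93 CPM with DMSO and 33.7, 41.4, 7.61 and 939 with bleomycin under the control shRNA (6.41, without replicate 4 3.24). Its call was lost on leaving out bleomycin replicate 4 (adjusted p 0.127). Its bleomycin levels were 15.4, 48.5, 7.10 and 3652 CPM with COPB2 shRNA 1 and 68.9, 51.1, 42.5 and 2252 with COPB2 shRNA 2. Replicate 4 was therefore the highest in all 3 sets of bleomycin libraries. Among the 213 higher genes that lost their call, replicate 4 was the highest bleomycin library in 122 with COPB2 shRNA 1 (57.3%) and in 101 with COPB2 shRNA 2 (47.4%), against 28.9% and 19.7% of all genes tested. Libraries of the same number and treatment deviated together across shRNAs (Pearson r across genes 0.425 to 0.782 for bleomycin and 0.098 to 0.8 for DMSO), so the shRNA sets do not repeat the experiment independently.

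The 4 transcripts named for the senescent state, chosen with earlier results of these data known, differed between the groups without overlap. They are therefore a description and not an independent check of that state. CDKN2A, GLB1 and IL6 were not called, as given below. CDKN1A, which encodes p21, was at 1004, 388, 467 and 446 CPM with DMSO and 4368, 3636, 3421 and 2371 with bleomycin (log2 fold change 2.58, SE 0.34, adjusted p 5.9e-06). All bleomycin libraries exceeded all DMSO libraries, although DMSO replicate 1 was well above the other DMSO libraries and bleomycin replicate 4 was the lowest of its group. LMNB1, which encodes lamin B1 of the nuclear envelope, was at 9.75, 12.2, 13.6 and 11.8 against 1.22, 2.46, 1.31 and 3.20 CPM (log2 fold change -2.53, SE 0.26, adjusted p 3.96e-07). MMP3, stromelysin-1, was nearly absent with DMSO at 0, 0.102, 0.158 and 0.234 CPM and reached 34.4, 8.17, 14.6 and 95.4 with bleomycin (log2 fold change 8.17, SE 1.7, adjusted p 0.000802), and its change without replicate 4 was 7.18 (adjusted p 0.00233). WNT2, a ligand that lung mesenchyme supplies to epithelium, fell from 73.1, 94.1, 70.9 and 86.9 to 1.01, 2.95, 0.713 and 1.10 CPM (log2 fold change -5.82, SE 0.43, adjusted p 3.6e-09), and by -6.42 without bleomycin replicate 2.

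**Figure D4:**
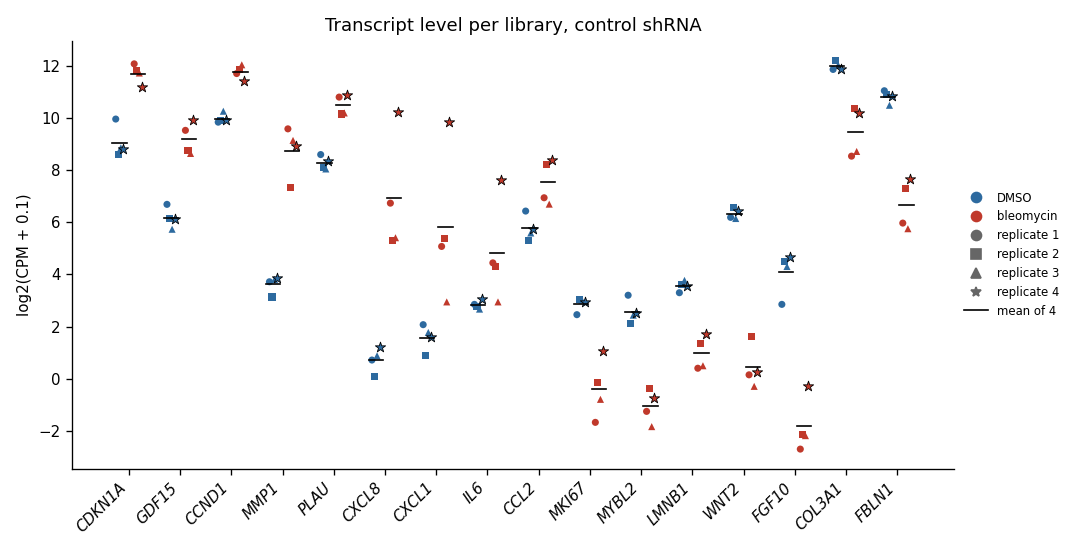
Level of 16 transcripts in each library with control shRNA, as log2(CPM + 0.1), with DMSO in blue, bleomycin in red, replicate 4 as an outlined star and a bar at the mean of the 4 log2 values. Replicate 4 is far above the other bleomycin libraries for CXCL8, CXCL1 and IL6, and lies near or within the range of the others for CDKN1A, MMP1, CCL2 and COL3A1.

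The 10 largest increases that hold without replicate 4 were those of MMP3, CXCL8, SERPINB2, EHF, TFPI2, SLC16A6, KYNU, IL1B, MMP1 and CCK. SERPINB2, an inhibitor of plasminogen activators, rose from 0.898, 0.610, 1.0 and 0.351 to 54.6, 27.9, 37.0 and 83.8 CPM (log2 fold change 6.14, SE 0.78, adjusted p 4.25e-06). TFPI2, a Kunitz-type inhibitor of serine proteases in the matrix, rose from 8.59, 6.71, 6.95 and 8.72 to 312, 171, 190.1 and 1175 CPM (log2 fold change 5.90, SE 0.86, adjusted p 1.98e-05), with replicate 4 far above the other 3 and a change of 4.88 without it. MMP1, interstitial collagenase, rose from 13.1, 8.69, 13.9 and 14.4 to 773, 161, 569 and 485 CPM (log2 fold change 5.31, SE 0.63, adjusted p 1.85e-06), and here bleomycin replicate 2 was the lowest and replicate 4 lay among the others. Also among them were EHF, an ETS transcription factor of epithelia (5.91, without DMSO replicate 2 6.70), SLC16A6, a monocarboxylate carrier (5.56), and KYNU, kynureninase of tryptophan breakdown (5.50). CCK, the cholecystokinin precursor, had the smallest adjusted p-value of all increases, at 0.257, 0.305, 0.263 and 0.0586 CPM with DMSO and 10.3, 5.90, 9.63 and 8.83 with bleomycin (log2 fold change 5.24, SE 0.35, adjusted p 1.44e-09). It was followed by CLDN1, a tight junction claudin, at 16.9, 8.44, 19.1 and 12.2 against 257, 201, 256 and 237 CPM (log2 fold change 4.07, SE 0.28, adjusted p 1.5e-09), the TRAIL decoy receptors TNFRSF10D (1.95) and TNFRSF10C (2.96), and NCEH1, a cholesteryl ester hydrolase (2.76). The largest gains in CPM were those of CDKN1A, of CCND1, which encodes cyclin D1 (924, 954, 1237 and 977 against 3374, 3751, 4258 and 2744 CPM, log2 fold change 1.79), and of TIMP1, CD44 and IGFBP4.

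Among the decreases, the smallest adjusted p-value was that of COL15A1, a basement membrane collagen, at 94.3, 101, 93.9 and 85.7 CPM with DMSO and 3.44, 5.90, 3.51 and 6.12 with bleomycin (log2 fold change -4.30, SE 0.20, adjusted p 4.68e-12). SERPINF1, the secreted factor PEDF, fell from 529, 459, 356 and 449 to 48.6, 51.3, 35 and 54.0 CPM (log2 fold change -3.25, SE 0.18, adjusted p 9.23e-11). S1PR1, a sphingosine-1-phosphate receptor (-2.81), ACSS1, a mitochondrial acetyl-CoA synthetase (-3.28), and CBX2, a Polycomb subunit (-3.26), were next. ADH1B, an alcohol dehydrogenase that also oxidizes retinol, had the largest decrease of the named genes, from 53.9, 90.6, 103 and 103 to 0.159, 1.04, 0.297 and 2.98 CPM (log2 fold change -6.28, SE 0.61, adjusted p 1.51e-07), and FGF10, the ligand for lung branching, fell from 7.12, 22.7, 19.7 and 25.3 to 0.0529, 0.123, 0.119 and 0.717 CPM (log2 fold change -6.16, SE 0.59, adjusted p 1.48e-07). In both genes the highest bleomycin value was that of replicate 4, and without it the changes were -7.44 and -7.48. The 10 largest decreases were ranked within the same limits as the increases. Others among them were CPXM1, a secreted carboxypeptidase-like protein (-4.57), DES, the intermediate filament desmin (-4.44), SCN7A, a sodium channel (-4.41), and APCDD1, an inhibitor of WNT signalling (-4.32). By CPM the largest losses included EEF2, elongation factor 2 (-0.72), where its call was lost on leaving out bleomycin replicates 1, 3 and 4 or DMSO replicate 1 in turn (adjusted p 0.0782 to 0.165), and TPT1, a translationally controlled growth protein (-0.91).

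Most targets of p53 rose. Of 40 tested, 30 were higher and 1 was lower (77.5% called, against 31.2% of all genes). The median log2 fold change was 0.95 against -0.014 over all genes tested, and 29 of the 31 calls hold without replicate 4. GDF15, a stress-induced TGF-β family cytokine, rose from 103, 71.8, 53.3 and 69.6 to 743, 436, 402 and 971 CPM (log2 fold change 3.10, SE 0.55, adjusted p 0.000156). MDM2, the ubiquitin ligase of p53, was at 47.5, 88.4, 126 and 85.5 against 201, 123, 308 and 296 CPM (log2 fold change 1.42, SE 0.34, adjusted p 0.00257), a call made although bleomycin replicate 2 lay within the DMSO range. The death receptors FAS (1.86) and TNFRSF10A (2.27), the ferredoxin reductase FDXR (1.63), the sestrin SESN1 (0.49) and the ubiquitin ligase subunit FBXO22 (1.08) were also higher. RRM2B, the ribonucleotide reductase subunit used for repair, was higher by 1.59. Without bleomycin replicates 1, 3 and 4 or DMSO replicates 1, 2 and 4 in turn it was not called (adjusted p 0.067 to 0.166). ZMAT3, an RNA-binding target of p53, had 125, 168, 199.9 and 158 against 181, 116, 214 and 209.5 CPM and was not called (0.14, adjusted p 0.684). The long noncoding RNA PURPL, induced by p53, had 2 counts in the DMSO libraries together and 1.32, 0.430, 2.56 and 2.04 CPM with bleomycin (log2 ratio of summed CPM 5.83, 95% counting interval 3.98 to 8.88).

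CDK inhibitors did not move together. CDKN2B, which encodes p15, rose from 14.4, 20.2, 27.6 and 17.9 to 63.9, 34.2, 72.5 and 47.5 CPM (log2 fold change 1.45, SE 0.27, adjusted p 0.000334). CDKN2A, which encodes p16 and ARF, had 91.3, 65.6, 77.7 and 68.6 CPM with DMSO and 80.2, 69.7, 56.5 and 44.8 with bleomycin, overlapping ranges, and was not called (-0.27, 95% confidence interval -0.81 to 0.27). CDKN2C, which encodes p18, fell from 11.7, 15.5, 11.4 and 15.8 to 1.64, 2.77, 1.13 and 2.48 CPM (-2.76), as did CDKN1B, which encodes p27 (-1.32), and CDKN1C, which encodes p57 (-1.33). Of 8 in the list, 2 were thus higher and 4 lower (75.0% called, against 31.2% of all genes), and all 6 calls hold without replicate 4.

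Transcripts of mitosis were mostly lower, and those of DNA replication were more often lower than higher. Of 44 mitotic and kinetochore genes tested, 27 were lower and 1 higher, with a median of -1.52 and a share called of 63.6% against 31.2% of all genes. Of 43 replication genes, 20 were lower and 3 higher, with a median of -0.59 and 53.5% called; the difference between the lists was not tested. MKI67, the proliferation marker Ki-67, fell from 5.39, 8.03, 8.0 and 7.5 to 0.212, 0.799, 0.475 and 1.99 CPM (log2 fold change -3.05, SE 0.50, adjusted p 7.26e-05). CDK1, the mitotic kinase, fell from 0.898, 3.81, 4.95 and 3.34 to 0.265, 0.246, 0.297 and 1.32 (log2 fold change -2.59, SE 0.60, adjusted p 0.00203). Both were highest in replicate 4 among the bleomycin libraries, and without it the changes were -3.85 and -3.55. TOP2A, topoisomerase II, fell from 9.75, 19.2, 33.5 and 17.7 to 3.81, 2.7, 5.17 and 8.61 CPM (-1.98). BIRC5, survivin, fell from 9.62, 4.98, 7.21 and 6.09 to 1.06, 1.41, 0.713 and 1.99 (-2.42). Lower too were PLK1, polo-like kinase 1 (-2.21), KIF20A, a cytokinesis kinesin (-2.7), PRC1, a spindle midzone protein (-1.85), and CENPA, the centromeric histone (-2.0). Cyclin levels did not follow this pattern closely: CCNB1, which encodes cyclin B1, had 20.5, 11.5, 16.8 and 12 against 12.5, 15.9, 11.5 and 11.1 CPM and was not called (adjusted p 0.411), and CCNA2, which encodes cyclin A2, was lower (-0.88) while its call was lost on leaving out bleomycin replicates 1 and 2 or DMSO replicates 3 and 4 in turn (adjusted p 0.0684 to 0.148). AURKA, Aurora kinase A, was the only mitotic gene called higher, from 12.4, 10.0, 14.9 and 12.4 to 24.9, 33.3, 30.3 and 30.2 CPM (log2 fold change 1.26, SE 0.19, adjusted p 3.1e-05).

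The replication genes that fell included the helicase loader subunits MCM3 (-1.06) and MCM6 (-1.16), MCM10 (-1.74) and the chromatin assembly subunit CHAF1B (-1.54). RRM2, the S-phase subunit of ribonucleotide reductase, fell from 13.7, 8.59, 15.2 and 9.54 to 1.69, 4.30, 1.25 and 4.91 CPM (log2 fold change -1.95, SE 0.41, adjusted p 0.000932). Its partner RRM1 was not called (-0.07, adjusted p 0.764), nor were the licensing factors CDC6 (-0.39, adjusted p 0.256) and CDT1 (-0.07, adjusted p 0.889). Against the direction of the list, PCNA, the sliding clamp, rose from 53.5, 50.4, 64.2 and 52.9 to 138, 119.9, 157 and 129.5 CPM (log2 fold change 1.3, SE 0.14, adjusted p 8.46e-07). TYMS, thymidylate synthase, rose from 25.1, 17.5, 22.7 and 15.9 to 60.1, 54.8, 64.3 and 50.4 CPM (log2 fold change 1.5, SE 0.18, adjusted p 2.41e-06). Neither gene had overlapping groups. Among transcription factors of the cycle, MYBL2, which activates late cell-cycle genes, had the largest decrease, from 9.11, 4.27, 5.32 and 5.62 to 0.318, 0.676, 0.178 and 0.496 CPM (log2 fold change -3.85, SE 0.42, adjusted p 5.78e-07). FOXM1, its partner in mitotic transcription, fell from 17, 8.99, 8.32 and 11.7 to 3.55, 5.84, 1.84 and 3.14 CPM (-1.68). In contrast, E2F7, an atypical E2F that represses its targets, rose from 1.80, 1.93, 1.89 and 2.28 to 15.2, 6.94, 19.3 and 7.01 CPM (log2 fold change 2.61, SE 0.44, adjusted p 9.77e-05). E2F1 (0.27, adjusted p 0.411) and RB1 (-0.22, adjusted p 0.722) were not called.

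Genes of homologous recombination and crosslink repair were lower where they changed (8 of 27 lower, 0 higher, median -0.53), among them FANCA (-1.0), FANCG (-0.86) and RAD54L (-1.49). The share called, 29.6%, was near that of all genes. Genes of damage sensing and end joining were mostly not called (2 of 20). H2AX, whose protein marks breaks, had 59.8, 40.4, 42.8 and 36.8 against 52.1, 45.8, 34.2 and 36.1 CPM, and PRKDC, the catalytic subunit of DNA-PK, 115, 152, 113 and 112 against 97.5, 109, 115 and 137. The exceptions were XRCC4, the partner of DNA ligase IV, at 1.54, 4.88, 6.42 and 3.92 against 15.4, 4.79, 25.6 and 10.3 CPM (log2 fold change 1.73, SE 0.46, adjusted p 0.00583) with overlapping ranges, and NHEJ1 (-0.61). Leaving out bleomycin replicate 4 or DMSO replicate 1 in turn ended its call (adjusted p 0.0611 to 0.0685).

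Polyadenylated transcripts of replication-dependent histone genes rose. These genes are normally transcribed in S phase to RNAs that end in a stem-loop without a poly(A) tail, so poly(A) libraries hold mainly their polyadenylated forms. Of 16 listed, 9 had enough counts to be tested. All 9 were higher, against 15.4% of all genes tested, with a median of 1.88, and all 9 hold without replicate 4. H1-2, a linker histone, rose from 36.6, 15.9, 21.8 and 10.2 to 106, 138, 106 and 72.0 CPM (log2 fold change 2.32, SE 0.45, adjusted p 0.000394). H2BC12 rose from 88.3, 46.4, 42.6 and 56.1 to 133, 149, 136 and 121 (1.21). H2BC21 rose from 19.9, 11.5, 12.4 and 12.6 to 57.8, 57.7, 52.8 and 39.8 (1.88). H2AC6 rose from 26.1, 17.2, 29.9 and 18.5 to 40.7, 53.2, 42.6 and 42.1 (0.96). Histone paralogues share sequence, so counts of single members are uncertain. The replication-independent variant H2AZ2 was lower (-0.65).

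Of 30 genes of the nuclear lamina and of high-mobility-group and other chromatin proteins, 12 were lower and 2 higher (46.7% called, against 31.2% of all genes). HMGB2, a DNA-bending protein, fell from 25.5, 39.8, 46.1 and 39.3 to 11.9, 8.91, 14 and 14.9 CPM (log2 fold change -1.60, SE 0.22, adjusted p 8.51e-06). EZH2, the Polycomb methyltransferase, fell from 7.31, 9.71, 9.21 and 9.66 to 3.60, 3.32, 3.15 and 3.81 CPM (-1.37). HMGB1 was not called (-0.65, adjusted p 0.0663) and was called without replicate 4 (-0.78, adjusted p 0.0427). LMNA, which encodes lamins A and C, was not called (0.23). The 2 higher genes encode the architectural proteins that accumulate at senescent heterochromatin, HMGA2, from 75.6, 76.1, 82.7 and 87.1 to 235, 124, 267 and 187 CPM (1.34), and HMGA1 (1.16). HMGA1 was not called without bleomycin replicate 1 (adjusted p 0.0553).

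Core promoters in lists of cell-cycle, chemokine, interleukin and protease genes were searched for short motifs. The RefSeq windows used run from 250 bases before to 50 after the start of each gene (GRCh38.p14). The motifs were CCAAT (bound by NF-Y), TTTGAA (the cell cycle homology region, CHR), TTCCCGCC or TTTCGCGC (E2F), TGAGTCA (AP-1) and GGAATTTCC or GGACTTTCC (NF-κB), each on both strands. None of these strings contains another. A window was at hand for 11413 of the genes tested. CHR letters were in 26 of 38 mitotic windows (68.4%) against 9.92% of all, and CCAAT in 27 (71.1% against 36.2%). E2F letters were in 14 of 37 replication windows (37.8% against 5.70%). NF-κB letters were in 8 of 10 CXC chemokine windows (80.0% against 0.797%). They were in 1 of 9 windows of interleukins and colony-stimulating factors, 0 of 15 of metalloproteinases and 0 of 16 of serpins and the plasminogen system. AP-1 letters were in 3 of 10, 3 of 9, 0 of 15 and 3 of 16 windows of these lists in turn. Of 13 windows of cell-cycle transcription factors, CHR, CCAAT and E2F letters were each in 3. Over all called genes, AP-1 letters were in 5.03% of the higher and 2.18% of the lower genes (3.24% of all), and CHR letters were in 9.71% and 12.1%. A match is a description of the letters and not evidence of binding. The windows of 3 genes are printed on the plus strand, with matches in capitals. For CCNB1, the cyclin B1 gene, which was not called, these are both CCAAT boxes. For the licensing factor gene CDC6 they are the 3 CCAAT matches (2 of them read on the opposite strand as ATTGG). For CXCL8 they are the AP-1 (TGACTCA) and NF-κB matches. The CCNB1 window held no CHR letters and the CDC6 window held no E2F letters.
CCNB1, chr5:69166900-69167199: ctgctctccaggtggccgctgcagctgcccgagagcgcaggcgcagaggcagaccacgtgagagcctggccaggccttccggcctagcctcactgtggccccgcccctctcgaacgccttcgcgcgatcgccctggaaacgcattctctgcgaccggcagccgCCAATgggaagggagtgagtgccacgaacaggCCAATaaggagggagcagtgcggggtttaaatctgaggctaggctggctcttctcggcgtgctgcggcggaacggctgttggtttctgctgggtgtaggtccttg
CDC6, chr17:40287629-40287928: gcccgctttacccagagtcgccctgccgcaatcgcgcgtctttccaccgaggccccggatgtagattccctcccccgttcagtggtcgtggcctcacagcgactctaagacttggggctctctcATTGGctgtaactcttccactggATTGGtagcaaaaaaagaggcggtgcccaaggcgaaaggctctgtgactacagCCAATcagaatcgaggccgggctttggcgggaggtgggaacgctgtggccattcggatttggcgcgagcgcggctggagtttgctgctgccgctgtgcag
CXCL8, chr4:73740319-73740618: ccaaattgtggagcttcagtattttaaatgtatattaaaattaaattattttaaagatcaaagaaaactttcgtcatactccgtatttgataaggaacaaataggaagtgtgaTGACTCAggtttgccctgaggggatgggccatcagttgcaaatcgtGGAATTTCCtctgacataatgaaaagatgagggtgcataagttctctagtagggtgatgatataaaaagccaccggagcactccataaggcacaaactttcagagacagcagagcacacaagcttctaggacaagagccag

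CXC chemokines had the highest median of all lists, 4.55, with 7 of 11 higher and 2 lower (81.8% called, against 31.2% of all genes). Only 3 higher calls were left without replicate 4, at a median of 2.85. Their summed level was 99.8 to 149 CPM with DMSO, and 179, 129, 72.2 and 2989.8 CPM in bleomycin replicates 1 to 4, so replicate 3 was below every DMSO library. Most of the sum with DMSO was CXCL12, which fell. CXCL8, interleukin-8, rose from 1.54, 0.965, 1.74 and 2.23 to 107, 39.6, 42.5 and 1219 CPM (log2 fold change 7.77, SE 1.87, adjusted p 0.0029), and its call holds without replicate 4 (5.30, adjusted p 0.0146). So do those of CXCL10, an interferon-inducible T-cell chemokine, at 0.192, 0.254, 0.632 and 0.293 against 3.55, 1.60, 2.38 and 24.8 CPM (4.52, without replicate 4 2.85), and CXCL14, at 0.0641, 0, 0.0526 and 0 against 3.28, 3.13, 2.56 and 3.92 CPM (log2 ratio of summed CPM 6.85, 95% counting interval 5.00 to 9.90), where replicate 4 was close to the others. CXCL2 (0.449, 0.508, 0.526 and 0.527 against 1.16, 1.84, 0.475 and 33.5 CPM, adjusted p 0.0747) and CXCL6 (1.67, 1.12, 2.47 and 1.7 against 2.33, 4.67, 0.951 and 84.4 CPM, adjusted p 0.0789) were not called, and in both bleomycin replicate 3 lay below the highest DMSO library. The homeostatic chemokine CXCL12 fell from 122, 112, 85.2 and 134 to 8.63, 18.8, 7.49 and 15.9 CPM (log2 fold change -3.16, SE 0.28, adjusted p 5.26e-08), with no such excess in replicate 4, and CXCL16 was lower (-1.28). Of the CC chemokines, CCL2, which recruits monocytes, rose from 86.5, 39.7, 48.2 and 54.0 to 123, 297, 104 and 342 CPM (log2 fold change 1.92, SE 0.59, adjusted p 0.0152), with replicates 2 and 4 above the other 2, and CCL26 was higher by 3.14.

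Interleukins and colony-stimulating factors rose in 8 of 16 genes and fell in 1 (56.25% called, against 31.2% of all genes). Of these 9 calls, 8 hold without replicate 4, although the median moved from 2.51 to 1.23. Without both DMSO replicate 1 and bleomycin replicate 2, 6 were called higher. IL1B rose from 0.641, 0.762, 0.789 and 0.937 to 24.9, 10.1, 10.4 and 94.8 CPM (log2 fold change 5.47, SE 1.3, adjusted p 0.00261, without replicate 4 4.28) and IL1A, the upstream cytokine of the SASP, from 0.192, 0.152, 0.316 and 0.117 to 5.03, 0.799, 3.45 and 10.0 CPM (log2 fold change 4.58, SE 1.35, adjusted p 0.0125, without replicate 4 3.95). IL11 rose from 4.75, 2.79, 5.21 and 3.04 to 39.7, 21.9, 26.5 and 167 CPM (4.01, without replicate 4 2.92) and LIF, of the same family, from 88.4, 51.6, 56.7 and 62.8 to 365, 254, 239 and 602 CPM (log2 fold change 2.49, SE 0.48, adjusted p 0.000356). IL6 had 7.12, 6.71, 6.26 and 8.32 CPM with DMSO and 21.7, 19.8, 7.61 and 199 with bleomycin, with bleomycin replicate 3 inside the DMSO range, and was not called (3.13, SE 1.29, adjusted p 0.0706; without replicate 4 1.24, adjusted p 0.478). TSLP, an epithelial-type alarmin, was higher by 1.3 and evenly so, at 5.00, 3.81, 5.00 and 4.74 against 9.21, 11.2, 11.5 and 13.6 CPM. IL34, a ligand of the CSF1 receptor, fell from 14.1, 5.18, 6.0 and 6.62 to 0.529, 3.07, 0.713 and 0.827 CPM (-2.64, without bleomycin replicate 2 -3.51). Of the receptors, IL7R rose (1.81), and IL6R (-1.43) and IL11RA (-1.43), which bind IL-6 and IL-11, fell. Markers of leukocytes, another source of cytokines, are given with the other cell types below, and their part in these levels was not tested.

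NF-κB subunits and their feedback genes were called in 23.8%, below the 31.2% of all genes, with 4 of 21 higher, 1 lower and a median of 0.24. IRAK2, a kinase of the interleukin-1 receptor pathway, rose from 10.8, 7.06, 8.05 and 8.02 to 50.8, 33.6, 29.5 and 41.2 CPM (2.19). IER3, an immediate-early target, rose from 154, 86.1, 78.7 and 96.8 to 334, 275, 197 and 431 (1.57). NFKBIA, the inhibitor IκBα, had 83.2, 50.3, 58.1 and 43.6 against 96.1, 94.5, 66.3 and 104 CPM and was not called (adjusted p 0.107). TNFAIP3, the deubiquitinase A20, was not called either, and only replicate 4 stood out at 20.3, 19.4, 19.6 and 19.7 against 22.3, 18.2, 12.9 and 54.5 CPM (adjusted p 0.573). The subunit genes NFKB2 (0.41, adjusted p 0.302) and RELB (0.24, adjusted p 0.616) were also not called. Of 18 AP-1 and immediate-early factors 3 were higher and 2 lower (27.8% called), with a median of -0.23. FOSL1, the FOS family member FRA1, rose from 36.5, 15.3, 18 and 24.8 to 139, 99.7, 103 and 62.4 CPM (log2 fold change 2.09, SE 0.31, adjusted p 2.16e-05), lowest in replicate 4 of the bleomycin libraries. ATF3 rose (1.08), and CEBPD, a C/EBP factor (-1.3), and KLF2 (-1.22) fell.

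The plasminogen system and serpins were called in 86.4%, against 31.2% of all genes, 13 of 22 higher and 6 lower, and 18 of 19 hold without replicate 4. PLAU, urokinase, rose from 390.0, 274, 266 and 328 to 1802, 1148, 1182 and 1893 CPM (log2 fold change 2.26, SE 0.28, adjusted p 3.65e-06), and its receptor PLAUR from 32.5, 19.3, 22.6 and 18.4 to 109, 77.6, 67.3 and 78.1 (log2 fold change 1.84, SE 0.26, adjusted p 1.64e-05). SERPINE2, protease nexin 1, rose from 88.3, 65.9, 87.1 and 69.5 to 929.5, 464, 722 and 914 (log2 fold change 3.29, SE 0.27, adjusted p 2.26e-08). Metalloproteinases were split, 8 of 26 in the list higher and 6 lower (53.85% called). Against the increases of MMP1 and MMP3, MMP2, gelatinase A, fell from 2798, 2249.6, 1701 and 2270.3 to 654, 702, 518 and 668 CPM (log2 fold change -1.83, SE 0.17, adjusted p 9.74e-08), with MMP11 (-2.40), MMP14 (-0.77) and the procollagen peptidase ADAMTS2 (-1.59). TIMP1, the inhibitor of metalloproteinases, rose from 1894, 1103, 1088 and 1258 to 4164, 4319.6, 2768 and 4001 CPM (log2 fold change 1.51, SE 0.28, adjusted p 0.00023).

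Growth factor ligands were called higher in 8 and lower in 8 of 30 (53.3%). EREG, an EGF receptor ligand, rose from 0.834, 1.58, 1.11 and 1.35 to 17.8, 4.18, 14.8 and 23.8 CPM (log2 fold change 3.62, SE 0.67, adjusted p 0.000265). HBEGF, another ligand of this receptor, rose from 7.18, 4.17, 5.58 and 4.04 to 45.3, 31.6, 38.3 and 30.6 (2.80), whereas the call of AREG was lost without replicate 4, as given above. HGF, a ligand of MET, rose from 34, 62.1, 71.2 and 68.0 to 85.9, 109, 114 and 346 CPM (1.48, without replicate 4 0.83). Its call was lost on leaving out bleomycin replicate 4 (adjusted p 0.145). VEGFA was not called (0.37), nor was FGF7, which had 8.79, 75.1, 72.5 and 62.2 against 54.5, 19.7, 81.9 and 241 CPM. PDGFD fell from 58.0, 137, 130.4 and 123 to 6.04, 12.4, 7.49 and 31.6 CPM (-2.96, without replicate 4 -3.67). In the IGF system 6 of 13 were higher and 1 lower (53.85% called, against 31.2% of all genes). IGFBP7, a secreted IGF-binding protein, rose from 143, 90.4, 103 and 86.4 to 300.0, 408, 240.2 and 377 CPM (log2 fold change 1.65, SE 0.28, adjusted p 0.000107). PAPPA, a protease of these binding proteins, rose from 68.4, 95.2, 84.7 and 86.0 to 214, 302, 281 and 578 (2.04). Calls of IGFBP2 (1.01), IGFBP3 (1.03) and IGFBP4 (0.83) rested on few libraries: for IGFBP2 its call was lost on leaving out bleomycin replicate 2 (adjusted p 0.0578), for IGFBP3 its call was lost on leaving out bleomycin replicates 2 and 4 or DMSO replicates 2, 3 and 4 in turn (adjusted p 0.0677 to 0.167) and for IGFBP4 its call was lost on leaving out bleomycin replicate 2 or DMSO replicates 2, 3 and 4 in turn (adjusted p 0.0521 to 0.0761). IGFBP5 was not called (4708, 4743, 4454 and 4970.3 against 2479, 6538, 2636 and 5428 CPM).

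WNT and TGF-β signalling genes moved in both directions. Of 27 genes of WNT ligands, antagonists and pathway components, 9 were higher and 8 lower (63.0% called, against 31.2% of all genes). All 17 calls hold without replicate 4. WNT16 rose from 0.321, 0.254, 0.579 and 0.351 to 11.5, 5.47, 16.3 and 9.10 CPM (4.78) while WNT2 fell. The antagonist DKK1 rose from 3.4, 5.39, 6.47 and 5.33 to 26.8, 33.1, 31.9 and 46.7 CPM (2.74), and the antagonist FRZB fell from 26.6, 30.9, 24.3 and 31.6 to 2.28, 5.10, 3.15 and 4.91 (-2.88). INHBA, the activin A subunit, rose from 16, 24.6, 32.9 and 19.4 to 125, 41.6, 129 and 203 CPM (log2 fold change 2.42, SE 0.51, adjusted p 0.000844), FST, follistatin, which binds activin, was higher (1.42), and BMP2 rose from 1.28, 2.08, 1.68 and 2.05 to 19.5, 8.17, 12.7 and 25.8 CPM (3.21). BMP4 fell from 166, 159.8, 155 and 167 to 24.0, 65.3, 28.5 and 55.7 CPM (log2 fold change -1.90, SE 0.34, adjusted p 0.000175), with SMAD6, an inhibitory SMAD (-1.54). LTBP4, a TGF-β binding protein of the matrix, fell from 451, 436, 337 and 371 to 52.4, 64.8, 42.5 and 76.0 CPM (-2.76).

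Genes that mark lung mesenchyme were lower in 14 and higher in 1 of 26 (57.7% called, against 31.2% of all genes). Beside FGF10 and WNT2 these included TBX5, a T-box factor of the lung, from 45.7, 50.5, 34.4 and 49.4 to 23.4, 28.1, 22.1 and 23.9 CPM (log2 fold change -0.88, SE 0.15, adjusted p 0.000148), the Hedgehog receptor PTCH1 (-1.12) and effector GLI3 (-1.25). Other identity factors were not called: TBX2 had 229, 203, 174 and 205 against 200.4, 172, 145 and 199 CPM (95% confidence interval of the log2 fold change -0.51 to 0.15) and FOXF1 236, 218, 221 and 211 against 205, 213, 172 and 216 CPM (-0.39 to 0.12). TBX3 (-0.46, adjusted p 0.0708) and TBX4 (-0.66, adjusted p 0.0784) were not called.

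Matrix genes were more often lower than higher, with 64% to 66.7% called in the 3 lists. Of 39 collagens and collagen-modifying enzymes 20 were lower and 5 higher, of 30 elastic fibre and glycoprotein genes 18 and 2, and of 25 proteoglycan and hyaluronan genes 10 and 6. COL3A1 fell from 3764, 4833, 4229 and 3811 to 374, 1338, 424 and 1192 CPM (log2 fold change -2.32, SE 0.41, adjusted p 0.000158). COL5A1 fell from 505, 590.2, 457 and 434 to 116, 209.9, 124 and 160.1 (-1.7). Bleomycin replicates 2 and 4 were the higher 2 in COL3A1, COL14A1 and FBLN1. COL14A1 fell from 167, 342, 208 and 279.8 to 7.09, 42.2, 9.21 and 77.8 CPM (-2.87, without replicate 4 -3.63) and FBLN1, fibulin-1, from 2134, 1909, 1449 and 1860.5 to 62.8, 158, 54.0 and 203 CPM (log2 fold change -3.94, SE 0.42, adjusted p 5.64e-07). ELN, elastin, fell from 12, 19.2, 13.3 and 18.3 to 0.318, 1.23, 0.475 and 0.717 CPM (log2 fold change -4.52, SE 0.47, adjusted p 3.5e-07). MFAP4, a microfibril protein, fell from 1529, 1147, 872 and 1369 to 80.7, 121, 51.0 and 118 (-3.73). DCN, decorin, fell from 2313, 2371, 2452 and 2269 to 242, 1017, 314 and 699.9 (-2.05). BGN, biglycan, fell from 699.5, 430.2, 337 and 498 to 107, 143, 60.7 and 104 (-2.25). TNC, tenascin-C, was lower (-1.64). The calls of the type I collagen chains did not hold in every fit that leaves out a library. COL1A1 had 6443, 6726, 5536 and 4724 CPM with DMSO and 1996, 4670.5, 1964 and 3071 with bleomycin (log2 fold change -1.0, SE 0.34, adjusted p 0.026). Without bleomycin replicates 1, 3 and 4 or DMSO replicates 1, 2 and 3 in turn it was not called (adjusted p 0.0552 to 0.117). COL1A2 changed by -0.65. Leaving out bleomycin replicates 1, 3 and 4 or DMSO replicates 1, 2 and 3 in turn ended its call (adjusted p 0.104 to 0.203). FN1, fibronectin, was not called (6244, 6251, 4228 and 5343 against 4507, 5227, 4602 and 5016 CPM, log2 fold change -0.19), nor was HAS2, hyaluronan synthase 2 (0.13). CD44, the hyaluronan receptor, rose from 1082, 749.6, 759 and 868 to 2100.5, 2823, 2170.1 and 1914 CPM (1.38), and SDC1, syndecan-1, by 1.47. In bulk RNA a lower level can reflect fewer cells of a type or less RNA per cell, which cannot be told apart here.

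Of 26 contractile and cytoskeletal genes 8 were lower and 3 higher (42.3% called, against 31.2% of all genes), with 7 of 11 calls left without replicate 4. ACTA2, smooth muscle actin, had 676, 315, 385 and 388 against 225, 376, 196 and 210.4 CPM (-0.81). ACTA2 was not called without bleomycin replicates 1, 3 and 4 or DMSO replicates 1 and 3 in turn (adjusted p 0.0642 to 0.209). TAGLN (-0.63, adjusted p 0.355) and CNN1 (-0.43, adjusted p 0.531) were not called. MYH10, non-muscle myosin IIB, fell from 241, 376, 327 and 338 to 60.5, 109.9, 81.4 and 110.1 CPM (-1.82), and ANKRD1, a YAP target, rose from 0.641, 0.508, 0.474 and 0.410 to 9.21, 6.02, 10.2 and 4.74 (3.88).

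**Figure D5:**
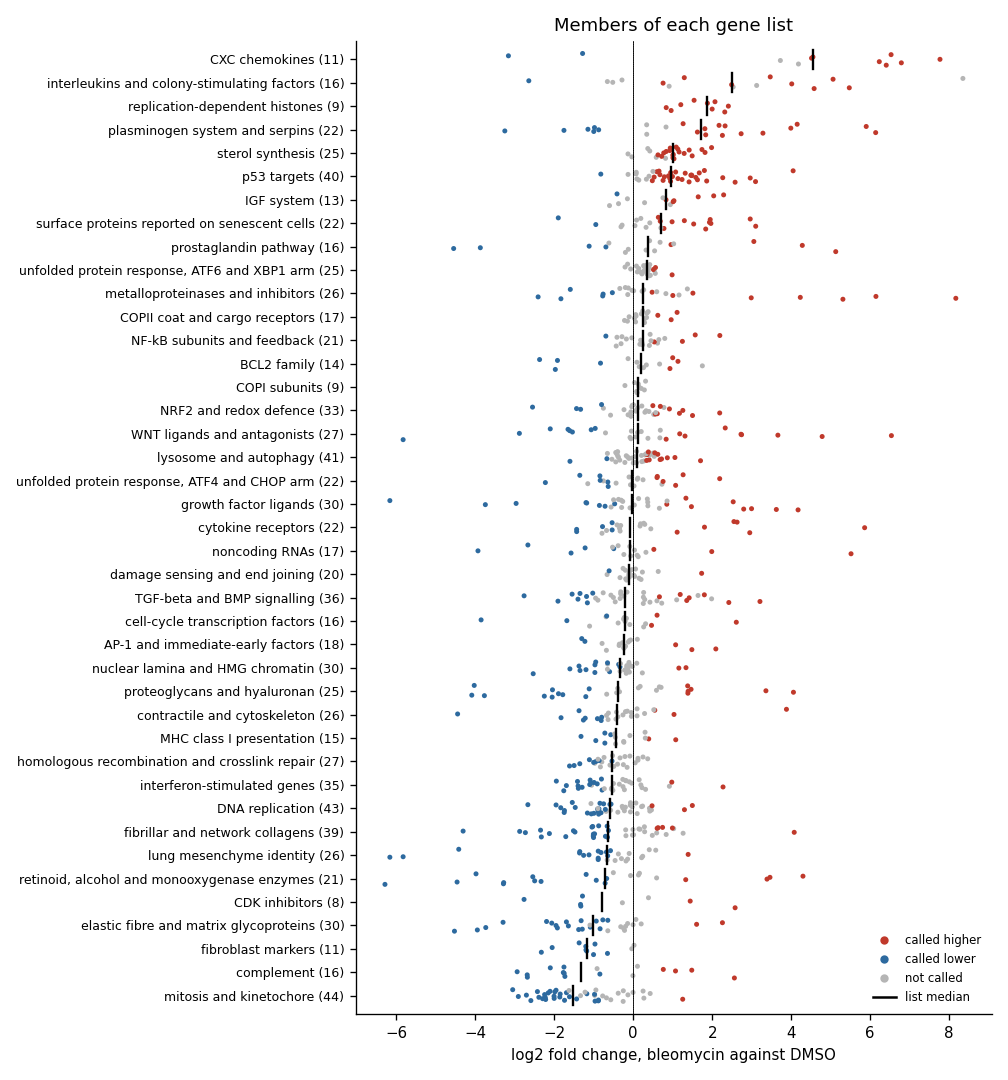
Log2 fold change of every tested member of each gene list with 8 or more tested genes (number in brackets), with called genes in red (higher) or blue (lower), other genes in grey and the list median as a black bar. CXC chemokines (median 4.55) and interleukins (2.51) stand at the top with wide ranges, sterol synthesis and p53 targets lie around 1, and mitotic genes are at the bottom (-1.52).

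Sterol synthesis genes rose together. Of 25 tested, 19 were higher and 0 lower (76.0% called, against 31.2% of all genes), with a median of 1.01, and 17 of the 19 hold without replicate 4. MSMO1, a methylsterol oxidase, rose from 29, 29.8, 41.3 and 25.2 to 133, 78.5, 172 and 59.0 CPM (log2 fold change 1.82, SE 0.30, adjusted p 9.04e-05). SQLE, squalene epoxidase, rose from 38.1, 38.5, 46.5 and 38.5 to 85.4, 72.2, 108 and 61.5 (log2 fold change 1.02, SE 0.17, adjusted p 0.000121). Their summed level was 1087 to 1539 CPM with DMSO and 1605 to 2551 with bleomycin, with the lowest bleomycin value in replicate 4 and the highest DMSO value in replicate 1.

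Enzymes of retinoid and alcohol metabolism and flavin monooxygenases were mostly lower (12 of 21 lower, 4 higher, 76.2% called). FMO2, the lung flavin monooxygenase, fell from 41.4, 109.9, 77.5 and 117 to 0.159, 7.01, 0.773 and 7.83 CPM (log2 fold change -4.45, SE 0.81, adjusted p 0.000217). RARRES2, the chemoattractant chemerin, fell from 224, 191, 192 and 169.6 to 6.51, 17.9, 6.48 and 18.4 (-3.98). ALDH1A1 was higher by 1.33 at under 1 CPM in every library. In the prostaglandin pathway, PTGDS, prostaglandin D synthase, fell from 507, 378, 234 and 375 to 8.05, 22.7, 3.98 and 29.3 CPM (log2 fold change -4.54, SE 0.65, adjusted p 1.61e-05). PTGIS, prostacyclin synthase, fell from 60.3, 67.4, 43.9 and 77.3 to 1.43, 7.99, 2.38 and 5.30 (-3.87). Of 33 NRF2 and redox genes 9 were higher and 4 lower, a share called of 39.4% against 31.2% of all genes, with a median of 0.12. Single members are given as such. NQO1, a quinone reductase, rose from 93.7, 55.8, 73.4 and 53.1 to 231, 159, 210.1 and 183 CPM (log2 fold change 1.5, SE 0.23, adjusted p 3.02e-05), and SRXN1, sulfiredoxin, by 1.17, while SOD3, extracellular superoxide dismutase, fell from 107, 64.8, 65.9 and 66.9 to 14.6, 17.5, 9.33 and 10.8 CPM (-2.55). HMOX1, heme oxygenase 1, was not called (-0.57), nor was SOD2, where replicate 4 alone stood out at 879, 886, 947 and 917 against 1067, 1248, 837 and 3081 CPM.

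Few transcripts of vesicle coats and of the ATF6 and XBP1 arm of the unfolded protein response were called, against 31.2% of all genes. Of the 9 COPI subunits 0 were called by edgeR (0 at an unadjusted p-value under 0.05) and 0 by DESeq2, and the largest absolute log2 fold change among them was 0.32. COPB2 had 335, 379, 465 and 398 CPM with DMSO and 422, 422, 566 and 511 with bleomycin (log2 fold change 0.29, SE 0.17, adjusted p 0.222). Of 17 COPII and cargo receptor genes 3 were higher, among them SEC23B (0.96) and the cargo receptor subunit MCFD2, from 234, 223, 237 and 265 to 490.2, 426, 611 and 546 CPM (1.11). In the ATF6 and XBP1 arm of the unfolded protein response 3 of 25 were higher (12% called, median 0.34), and none of these calls held without replicate 4. The chaperone HSPA5 had 788, 708, 873 and 636 against 859, 1064, 840.4 and 1223 CPM and was not called (adjusted p 0.116). In the ATF4 and CHOP arm 6 of 22 were higher and 6 lower (54.5% called). ATF4 fell from 324, 258, 274 and 257 to 156, 209, 142 and 211 CPM (log2 fold change -0.63, SE 0.16, adjusted p 0.00483). PHGDH, the first enzyme of serine synthesis, fell from 242, 129, 145 and 128 to 26, 56.8, 19.4 and 36.2 (-2.22). In contrast, STC2, a secreted glycoprotein, rose (1.27). DDIT3, which encodes CHOP, was not called (0.02, adjusted p 0.936). Lysosomal and autophagy genes were called in 13 of 41 (31.7%), a share near that of all genes, 11 higher and 2 lower. GLB1, which encodes the enzyme behind senescence-associated β-galactosidase staining, was not called (177, 118, 81.0 and 117 against 133, 140.1, 96.5 and 124 CPM, log2 fold change 0.00). FUCA1, a lysosomal fucosidase, rose (0.87), as did MAP1LC3B of autophagosomes (0.55).

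Innate immune effectors other than cytokines were more often lower than higher. Of 35 interferon-stimulated genes 14 were lower and 2 higher (45.7% called, against 31.2% of all genes), with a median of -0.54. IFIT1 fell from 32.9, 40.2, 36.7 and 43.5 to 5.82, 11.9, 8.92 and 18.8 CPM (log2 fold change -1.75, SE 0.34, adjusted p 0.000439). STAT2, a transducer of type I interferon, fell from 355, 331, 242 and 316 to 126, 172, 119 and 164 (-1.10), while ISG15 was not called (0.32). Of 16 complement genes 9 were lower and 4 higher (81.25% called). C1R, a protease of the classical pathway, fell from 1253, 1084, 822 and 1052 to 91.1, 254, 81.8 and 232 CPM (-2.68), and C3, the central component, rose from 46.9, 33.7, 21.4 and 31.2 to 150.0, 165, 69.6 and 402 (log2 fold change 2.56, SE 0.52, adjusted p 0.000585), with the highest value in replicate 4 and a change of 1.99 without it. B2M, the light chain of MHC class I, fell from 1197, 1198, 1289.9 and 1182 to 606, 579, 643 and 702 CPM (log2 fold change -0.94, SE 0.15, adjusted p 6.61e-05), as did the immunoproteasome subunit PSMB9 (-1.32), and the peptide transporter TAP1 rose (1.08).

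Among surface proteins named in work on senescent cells, 12 of 22 were higher and 2 lower (63.6% called, against 31.2% of all genes). CD36, a scavenger receptor, rose from 1.09, 0.915, 0.895 and 1.11 to 7.20, 3.07, 8.32 and 15.9 CPM (log2 fold change 3.10, SE 0.54, adjusted p 0.00013). ULBP1, a ligand of the NKG2D receptor, rose from 5.32, 4.78, 4.84 and 5.68 to 13.6, 14.6, 15.6 and 16 (1.53). In contrast, GPNMB, a lysosomal and surface glycoprotein, fell from 36.5, 41.4, 23.3 and 41.1 to 11.2, 9.40, 8.02 and 9.65 (-1.89). DPP4 changed by 0.78. Its call was lost on leaving out bleomycin replicate 4 (adjusted p 0.0706). CD274, which encodes PD-L1, changed by 0.69. Without bleomycin replicates 1, 3 and 4 or DMSO replicates 1 and 2 in turn it was not called (adjusted p 0.0505 to 0.151). Of the BCL2 family, BCL2L1, which encodes BCL-XL, was at 176, 102, 100.0 and 110.2 against 325, 232, 229 and 146 CPM (log2 fold change 0.93, SE 0.26, adjusted p 0.00774), with replicate 4 the lowest bleomycin library and inside the DMSO range. BCL2 fell from 5.32, 8.89, 5.47 and 5.91 to 0.953, 1.54, 0.773 and 3.25 CPM (log2 fold change -1.97, SE 0.34, adjusted p 0.000117), and so did the pro-apoptotic BH3-only genes BMF (-2.37) and BCL2L11, which encodes BIM (-1.91), while BID rose (1.0). MCL1 was not called (0.16, adjusted p 0.728).

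Markers of other cell types were low but some differed between the groups. CD68, a lysosomal protein used as a macrophage marker, rose from 31.1, 15.8, 13.4 and 26.2 to 107, 61.7, 69.6 and 61.9 CPM (log2 fold change 1.80, SE 0.30, adjusted p 8.45e-05) and made up most of the leukocyte sum. PTPRC, CD45, was at 0, 0.0508, 0.0526 and 0.117 against 0.688, 0.307, 1.31 and 1.10 CPM. The endothelial genes PECAM1 (1 count in the DMSO libraries together, log2 ratio of summed CPM 5.98, 95% counting interval 3.50 to 11.28) and KDR (2.44) were higher and VWF was lower (-1.42), and for KDR its call was lost on leaving out DMSO replicate 2 (adjusted p 0.0646). The epithelial cadherin CDH1 had 3 counts in the DMSO libraries and 0.953, 0.922, 0.773 and 0.662 CPM with bleomycin (log2 ratio of summed CPM 4.30, 95% counting interval 2.75 to 6.58), and CLDN4 was higher by 1.25. PECAM1, CDH1, KDR and PTPRC were at most 1.31 CPM in any library, and the part of other cells in any result was not tested. Of 11 fibroblast markers 9 were lower and 0 higher (81.8% called, against 31.2% of all genes), and 6 of the calls hold without replicate 4. Among long noncoding RNAs, LINC-PINT rose from 6.03, 9.25, 8.37 and 9.13 to 36.4, 22.7, 39 and 32.3 CPM (1.99) and MIAT fell from 13.7, 51.0, 38 and 38.6 to 1.69, 1.04, 3.27 and 3.25 (-3.93), whereas MALAT1 (26.7, 164, 165 and 86.5 against 67.2, 29.9, 188 and 139 CPM) and NEAT1 (0.13) were not called and were lowest in the 2 libraries that stand apart.

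The bleomycin effect was also measured with COPB2 shRNA 1 and COPB2 shRNA 2, in 8 other libraries each. There 35.2% and 40% of the genes tested were called. Of the 4614 genes called with the control shRNA, 4120 (89.3%, or 79.2% of the calls there) were called in the same direction with shRNA 1 and 3979 (86.2%, or 67.3%) with shRNA 2, and 0 were called in the opposite direction. Calls in all 3 sets were made for 85.0% of the genes that hold without bleomycin replicate 4 and for 50.2% of those that do not. The difference in the bleomycin effect between a COPB2 shRNA and the control shRNA was not called for any gene by edgeR or by DESeq2 (0 genes for each shRNA), with 121 and 285 genes at an unadjusted edgeR p-value under 0.05 where 739 would be the number at that rate. These counts carry the correlation between same-numbered libraries given above.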

How the data were processed

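Poly(A) RNA of IMR90 cells was sequenced by the authors, and the deposited table holds raw counts per gene symbol for each library, in which each column matched 1 sample by name. Per the study's methods the libraries were made with a directional kit and read single-end. The methods and the submitters' processing notes differ in the aligner and genome build (the notes list STAR 2.7.8a, DRAGEN, hg38 and DESeq2 1.32.0), and the table holds symbols only, so coordinates are given for RefSeq promoter windows alone (GRCh38.p14). No total or unassigned rows entered the tests.

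Counts were tested with edgeR 4.0.16 (R 4.3.3): the default filter for low counts, TMM scaling, and a robust quasi-likelihood F-test over all 24 IMR90 libraries with shRNAs, in 6 groups of 4 that share 1 estimate of the spread. The contrast was bleomycin minus DMSO with the control shRNA. P-values were two-sided and adjusted over the whole set of tested genes (Benjamini-Hochberg), with calls made below 0.05. A change holds without bleomycin replicate 4 when it is called in the same direction in the fit without that library. CPM are counts over TMM-scaled library sizes. Alternatives were DESeq2 1.42.0, DESeq2 size factors, no filter, the 8 libraries alone, a replicate block and leaving out libraries. Values of shared-sequence genes are uncertain. The procedure was tested on simulated data. Where a group had 0 counts in all libraries, a change is a bound from a floor of 3 counts over the group, and with 1 to 3 counts in a group it is a ratio with an exact 95% interval that covers counting error only.

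Named genes were the 10 largest increases and decreases among calls with at least 100 counts on average, no overlap of the groups and a call without bleomycin replicate 4, the 5 smallest adjusted p-values and 5 largest CPM differences in each direction, the 10 lost calls whose change shrank most without replicate 4, the 5 largest changes called only without it, and key or leading members of gene lists. The members and the lists were chosen with earlier results of these data known. The 42 samples include 18 not analysed here. Some key members of the lists are not reported here.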

Additional observations from a re-analysis of the deposited data

Results flagged for a closer look

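In groups of 4 libraries, a value was picked out when a wide gap set it apart from the other 3. The gap had to take up more of the range of the group in CPM than Dixon's 95% critical value allows. Chance alone exceeds this value in about 1 of 20 groups if levels are normally distributed, which counts near the floor are not. The length of the lists below was not compared with that rate. Bleomycin replicate 4 held the highest value for AREG at 49.5, CCL7 at 37.4, CDK1 at 1.32, CKAP2L at 0.993, CXCL1 at 939, CXCL10 at 24.8, CXCL2 at 33.5, CXCL3 at 145, CXCL5 at 521, CXCL6 at 84.4, CXCL8 at 1219, DPP4 at 274, EGFEM1P at 0.883, FGF10 at 0.717, FGL2 at 51.9, HGF at 346, IL11 at 167, IL13RA2 at 31, IL6 at 199, KRT14 at 0.110, PTGS2 at 97.3, RGS18 at 12.8, TFPI2 at 1175, TNFSF15 at 136, TSPAN2 at 1.82 and VEGFA at 90.6 CPM. Many of these genes, such as CXCL1, CXCL5, PTGS2 and FGL2, were named because leaving out replicate 4 changed their call, so how often this library appears here is no test of it. These include chemokines, cytokines and PTGS2, which were higher in this library. Among the genes flagged here, CXCL2, CXCL6, IL6, VEGFA, CKAP2L, FGL2, EGFEM1P and TSPAN2 were not called with all libraries. CDK1 and FGF10 fell, and KRT14 had at most 3 counts in any library. Bleomycin replicate 2 held the highest value for ACTA2 at 376, DES at 2.77, H2AC6 at 53.2, IL34 at 3.07 and SCGB1A1 at 0.123 CPM. In the bleomycin group the lowest value stood apart for KRT5 at 0 (replicate 3) and PECAM1 at 0.386 (replicate 4) CPM.

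In the DMSO group, replicate 1 held the highest value for BCL2L1 at 176, CDKN1A at 1004, CXCL3 at 0.898, H2BC21 at 19.9, IL34 at 14.1, LMNA at 914, NFKB2 at 79.1, PHGDH at 242, SOD3 at 107 and TAP1 at 82.7 CPM. The highest value was in replicate 2 for BCL2 at 8.89 and PRKDC at 152 CPM, in replicate 3 for B2M at 1289.9, CCND1 at 1237, CDH1 at 0.158, PECAM1 at 0.0526, PRC1 at 14.5, SQLE at 46.5 and STC2 at 304 CPM, and in replicate 4 for SFTPC at 0.0586 CPM. The lowest value stood apart for DDIT3 at 29.6 (replicate 3), DES at 19.7 (replicate 3), FGL2 at 8.85 (replicate 1), H2AZ2 at 76.8 (replicate 1) and PDGFD at 58.0 (replicate 1) CPM. The values of the epithelial and endothelial marker genes among these correspond to 1 to 3 counts where they are below 0.2 CPM.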

How the results depend on the processing

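The counts of called genes, of genes called in each direction and of genes that hold without bleomycin replicate 4 stayed within 1.5 times of the values reported under every alternative but 1, and no called gene named in the report changed sign. The exception is the demand for a change of 1 or more on the log2 scale, which by its construction left 2437 calls, 1323 higher and 1114 lower. Leaving out 1 of the 8 libraries at a time gave 3704 to 4717 calls (1871 to 2537 higher, 1740 to 2180 lower), and leaving out replicate 4 of all 6 groups gave 3304 (1734 higher, 1570 lower). Other choices gave 4588 calls with the size factors of DESeq2, 5399 with no filter on low counts, 5628 with the Wald test of DESeq2 and 3391 with only the 8 libraries compared. The count of genes that hold without bleomycin replicate 4 ran from 2893 to 4930 over these. Alternatives chosen after seeing the data gave 4121 calls without DMSO replicate 1 and bleomycin replicate 2, and 4929 with offsets for GC content and transcript length.

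A replicate block gave 6050 calls (2960 higher, 3090 lower). The labels do not say what a replicate number stands for. Deviations of same-numbered bleomycin and DMSO libraries from their group means correlated at 0.280, -0.495, 0.584 and 0.256 across genes for replicates 1 to 4. Whether the numbers pair the treatments could not be told from these values. Of the 4 bleomycin libraries, 2 correlated best with the DMSO library of their own number. Among the named genes the block ended 1 call and added 9.

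Calls of named genes were lost in 2 genes with DESeq2 size factors, 9 with no filter, 11 with the Wald test, 9 with the 8 libraries alone, 12 without the 2 libraries that stand apart, 3 with the GC and length offsets and 16 without replicate 4 of all groups. Leaving out bleomycin replicate 4 ended 20 named calls and leaving out another library 4 to 13, but 10 of the named genes were picked because their call was lost without replicate 4. The cause of these losses was not tested. Median log2 fold changes over all genes were -0.014 with the scaling used and 0.028 with DESeq2 size factors. Depth limits statements on genes near the floor of 0.1524 to 0.1924 CPM, and intervals on such counts cover counting error only.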

Other observations

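More symbols were detected in the bleomycin libraries, 19212 to 20161 with at least 1 count against 16691 to 17250 with DMSO, while the numbers with at least 10 counts were closer (13667 to 14170 against 13321 to 13789). A total of 773 symbols had 0 counts in all 4 DMSO libraries and at least 1 count in all 4 bleomycin libraries, and 5 the reverse. Most of the 773 were protein-coding (696) and barely detected, with a median summed count of 13, and 74 had enough counts to be tested. The genes with the most counts among them, chosen after their values were seen, were NEB, which encodes nebulin of skeletal muscle (104 counts, at least 5.14 higher on the log2 scale when 3 counts over the group stand for the 0), NOS1, neuronal nitric oxide synthase (89 counts, at least 4.92), ATP2B2, a calcium pump of neurons (78 counts, at least 4.73), TNR, tenascin-R of the nervous system (72 counts, at least 4.61), and CLDN18, a claudin of stomach and alveolar epithelium (72 counts, at least 4.61). The median genomic span of the genes was 48.4 kb against 33.9 kb for all genes tested. In the other direction MMP23B, a membrane metalloproteinase, had 30, 15, 20 and 22 counts with DMSO and 0 with bleomycin, at least 4.83 lower on the same scale.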
